A study of Mus musculus with 6 samples.

Results

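Heat shock transcription factor 1 and the cytosolic heat shock proteins were followed as 10 genes in CT26 cells (a line from a mouse colon carcinoma) that carried a guide against Cdk10 (sgCdk10, 3 libraries) or a control guide (sgControl, 3 libraries). The genes were chosen by symbol from the 57010 identifiers of the count table: Hsf1, 6 genes known as heat-inducible (Hspa1a, Hspa1b, Dnajb1, Hsph1, Hspb1 and Hsp90aa1) and 3 known as constitutive (Hspa8, Hsp90ab1 and Hspa4). Cdk10 encodes cyclin-dependent kinase 10, and the comparison asks what is different in the RNA of cells that carry a guide against it. The labels name no heat or drug treatment of either group, do not say whether a line was 1 clone or a pool of cells, and do not give the target site of the guide. All 10 genes had counts, and 8 passed the filter on low counts and were tested. Hspa1a and Hspb1 did not pass it.

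HSF1 is the main transcription factor of the heat shock response. In unstressed cells it is held inactive with the help of chaperones, and when unfolded protein accumulates it forms trimers that bind repeats of nGAAn, the heat shock element, in front of chaperone genes. HSP70 proteins (Hspa1a, Hspa1b, Hspa8) hold unfolded chains, J proteins such as Dnajb1 bring substrates to them, and HSP110 proteins (Hsph1, Hspa4) exchange their nucleotide. HSP90 (Hsp90aa1, Hsp90ab1) finishes the folding of kinases and receptors, and small heat shock proteins such as Hspb1 keep unfolded chains soluble. Tumour lines are known to carry high levels of many of these proteins without heat.

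Totals ran from 17532202 to 19258309 counts in the 6 libraries, and 3 counts in a library, taken as the floor of detection, corresponded to 0.156 to 0.171 CPM, the counts scaled to a common library total. Cdk10 itself had 11.3, 12.9 and 10.5 CPM in sgCdk10, against 21.5, 19.5 and 20.1 CPM in sgControl, a log2 fold change of -0.82 (SE 0.08; adjusted p = 8.4e-09 in edgeR). The libraries labelled sgCdk10 thus had the lower Cdk10 mRNA in 3 of 3 cases. One library, sgControl replicate 3, stood apart: on the second principal component, with 16.5% of the variance, it lay at -19.0, against -5.63 to 11.9 for the other 5. Markers of other cell types were near the floor. The 15 leukocyte markers summed to 0.663 to 1.2 CPM in sgCdk10 and 0.679 to 1.13 CPM in sgControl, with Cd3e, Cd3d, Cd8a, Ncr1, Adgre1 and S100a9 at 0 counts in all 6 libraries. The 9 endothelial and adipose markers summed to 1.33 to 1.45 CPM in sgCdk10 and 1.13 to 1.58 CPM in sgControl, with Adipoq and Lep at 0 counts. The epithelial marker Epcam had 0 counts in all libraries and Cdh1 at most 1, and Krt8, Krt19, Vil1 and Cdx2 had at most 12 counts in a library. The mesenchymal filament gene Vim was abundant. The keratin genes Krt18 and Krt20 were expressed and moved with the groups, at 37.5 ± 1.05 and 19.5 ± 1.44 CPM in sgCdk10 and 23.95 ± 1.44 and 13.7 ± 0.641 CPM in sgControl (SD, n = 3 each), and their part in the results on chaperones was not tested.

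In sgCdk10 cells 6 of the 10 genes were higher, 1 was lower, 1 did not pass the test and 2 were too low to be tested. The largest rises were those of Hsph1, 1.58-fold, Dnajb1, 1.45-fold, and Hspa8, 1.34-fold. Hsp90aa1, Hsf1 and Hspa4 rose by less than 1.25-fold, and Hsp90ab1, the most abundant of the 10, fell to 0.918-fold. Hspa1b, the better covered gene of the classical inducible HSP70 pair, had nearly the same level in both groups. Over all 13442 tested genes 42.5% were called at an adjusted p under 0.05 in edgeR's quasi-likelihood fit, 22.1% higher and 20.4% lower. A rise of at least 1.25-fold was called for 3 of the 8 tested members, against 9.10% of all tested genes, and a fall of that size for 0 members, against 6.55%. The groups did not overlap in 6 members that were higher and 1 that was lower, against 26.6% and 24.8% of all tested genes (51.3% in either direction). The median log2 fold change was 0.15 over the 8 tested members and 0.00 over all tested genes. Without sgControl replicate 3 the counts of 6 higher and 1 lower were the same. Leaving out each library in turn gave 5 to 6 higher and 1 lower. The calls of Hsf1 and Hspa4 were each lost in some settings. Since the labels do not tell whether replicates were grown as separate cultures, the p-values cover the spread among these 6 libraries alone, and that spread may be technical. In bulk RNA a smaller number of expressing cells and less RNA in each cell cannot be told apart.

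**Figure D1:**
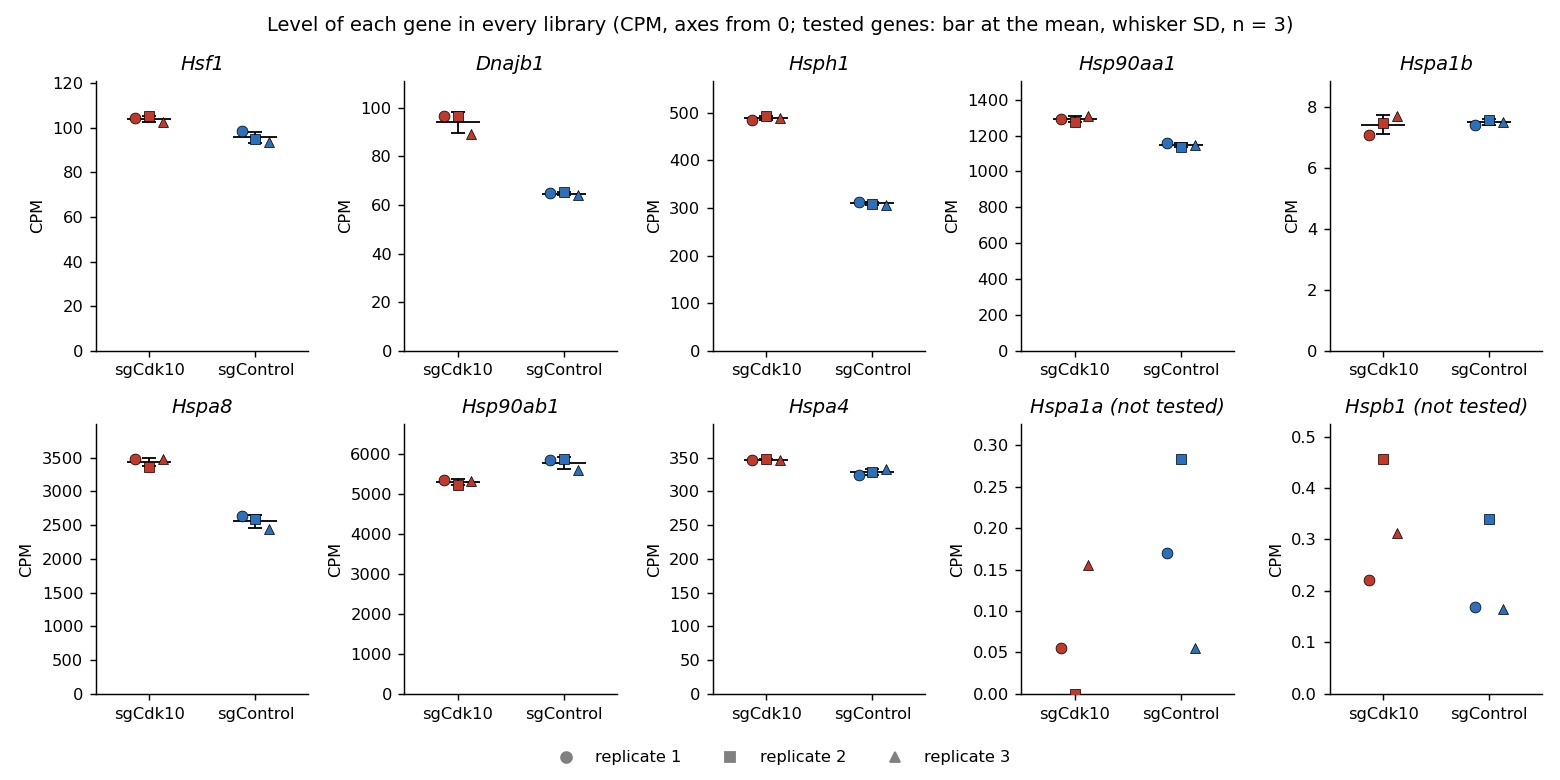
Level of the 10 genes in each library, in CPM on axes that start at 0, with sgCdk10 on the left (red) and sgControl on the right (blue); for the 8 tested genes a bar marks the mean and a whisker the SD of 3 libraries. Dnajb1, Hsph1 and Hspa8 are separated by several SD, Hspa1b overlaps, and Hsp90ab1 is lower in sgCdk10.

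Hsf1 (chromosome 15, 76477422 to 76501913, plus strand, GRCm38) had 104, 105 and 103 CPM in the 3 sgCdk10 libraries, against 98.5, 94.96 and 93.5 CPM in sgControl. Every sgCdk10 library was above every sgControl library, by a small step. The log2 fold change was 0.12 (SE 0.03; adjusted p = 0.00615 in edgeR). This call was lost with a correction for GC content and length, where the log2 fold change was 0.02 (adjusted p = 0.549; range over 16 alternatives 0.00466 to 0.549). Messenger RNA does not show the activity of HSF1, which is set largely by its trimerization and phosphorylation.

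Among the inducible genes Hsph1, which encodes the HSP110 protein HSP105 (chromosome 5, 149614287 to 149636376, minus strand), had 484, 493 and 489 CPM in sgCdk10 and 313, 309 and 307 CPM in sgControl. The groups were far apart relative to the spread within them, with a log2 fold change of 0.66 (SE 0.03; adjusted p = 8.7e-16 in edgeR). Of all tested genes, 3.21% rose by more. Dnajb1, the J protein HSP40 that stimulates the ATPase of HSP70 (chromosome 8, 83608193 to 83612653, plus strand), had 96.5, 96.5 and 89.1 CPM in sgCdk10 and 64.7, 65.4 and 64.0 CPM in sgControl. Replicate 3 of sgCdk10 was the lowest of its group and still above all sgControl libraries. Its log2 fold change was 0.54 (SE 0.04; adjusted p = 7.6e-11 in edgeR). Hsp90aa1, the inducible HSP90 gene (chromosome 12, 110690605 to 110702728, minus strand), had 1291, 1277 and 1308 CPM in sgCdk10 and 1157, 1136 and 1145 CPM in sgControl. The groups did not overlap, and the log2 fold change was 0.17 (SE 0.02; adjusted p = 3.8e-06 in edgeR).

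The HSP70 pair on chromosome 17 gave no call. Hspa1b (34956436 to 34959238, minus strand) had 128, 131 and 148 counts in sgCdk10 and 131, 134 and 136 counts in sgControl, or 7.41 ± 0.313 and 7.49 ± 0.0913 CPM (SD, n = 3 each). The groups overlapped, with a log2 fold change of -0.02 (SE 0.10; adjusted p = 0.917 in edgeR). The approximate 95% interval of the ratio ran from 0.862-fold to 1.14-fold. It does not reach the rise of Dnajb1 or Hsph1 but includes that of Hsp90aa1, 1.13-fold. Hspa1a (34969190 to 34972156, minus strand) had 1, 0 and 3 counts in sgCdk10 and 3, 5 and 1 counts in sgControl, at or near the floor. Without a filter its log2 fold change was -1.14 (SE 0.91; adjusted p = 0.483 in edgeR). Exons of the predicted gene Gm20481 on the other strand, listed at 0 counts, overlap 19% of the Hspa1a exon length. Transcripts of Hspa1a and Hspa1b were 99.2% identical over 2201 aligned bases, so how reads were divided between them is uncertain. With both summed to 1 row the log2 fold change was -0.03 (adjusted p = 0.815 in edgeR).

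Hspb1, the small heat shock protein HSP25 of mouse (chromosome 5, 135887919 to 135889563, plus strand), had 4, 8 and 6 counts in sgCdk10 and 3, 6 and 3 counts in sgControl. These counts overlapped and were close to the floor, and a difference was not detectable at these counts (log2 fold change without a filter 0.53, SE 0.58; adjusted p = 0.555 in edgeR). A stretch of 477 of its 930 transcript bases was 99.8% identical to the predicted gene Gm9817, and 441 bases were as close to the pseudogene Hsp25-ps1, both listed at 0 counts. Reads from such a stretch may not have been assigned to any gene.

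Sequences around the start sites were compared for exact matches to the letters that HSF1 is known to bind. RefSeq windows of 250 bases before to 50 bases after the start site (GRCm38.p6) were given for 6 of the 10 genes, in 8 windows. They were searched on both strands for heat shock elements of adjoining units. The 2-unit form was GAANNTTC or TTCNNGAA, and the 3-unit form was either of these followed, after NN, by one more GAA or TTC in alternation, so that each 3-unit match holds overlapping 2-unit matches. Of 32851 windows of the same length, 15.1% held the 2-unit form and 0.603% the 3-unit form. The 250 bases before the start site are printed for the gene that rose most, for another riser and for the better covered gene of the HSP70 pair, in capitals where the 2-unit form matched.
Hsph1, chr5:149636337-149636586, minus strand: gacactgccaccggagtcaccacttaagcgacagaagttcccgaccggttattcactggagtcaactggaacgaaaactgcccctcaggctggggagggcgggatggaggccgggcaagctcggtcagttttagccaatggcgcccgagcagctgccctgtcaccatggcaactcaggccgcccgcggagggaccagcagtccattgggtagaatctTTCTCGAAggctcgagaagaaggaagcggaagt
Dnajb1, chr8:83607925-83608174, plus strand: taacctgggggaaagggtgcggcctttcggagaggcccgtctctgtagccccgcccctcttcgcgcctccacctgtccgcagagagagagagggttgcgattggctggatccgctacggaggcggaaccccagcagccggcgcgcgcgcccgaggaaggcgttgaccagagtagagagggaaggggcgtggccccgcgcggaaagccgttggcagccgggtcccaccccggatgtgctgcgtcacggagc
Hspa1b, chr17:34959239-34959488, minus strand: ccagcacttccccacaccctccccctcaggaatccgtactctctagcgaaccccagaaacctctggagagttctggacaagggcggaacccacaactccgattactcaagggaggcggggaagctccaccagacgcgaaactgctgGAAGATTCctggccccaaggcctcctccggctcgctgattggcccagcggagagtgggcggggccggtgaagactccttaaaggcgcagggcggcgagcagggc
Hsph1 alone among the 6 genes held the 3-unit form. It lay 37 to 49 bases after the start site of the window printed above and 16 to 28 bases after that of the other Hsph1 window, from which it is shown with 6 bases on each side.
Hsph1, chr5:149636282-149636306, minus strand, 3-unit match in capitals: tgcagaTTCTGGAAAGTTCtcctca
Hspa1b and Hspa1a each held 1 match of the 2-unit form, from 104 to 97 bases before the start site, and their windows were 98.7% identical. Counted from 1 at the 5′ end of the window, the substitutions from Hspa1a to Hspa1b were C44T, T47C, T249G and C276T. Hspb1 held 2 matches of the 2-unit form. Dnajb1, which rose, and Hspa4 held no match in these windows, which says only that these letters are not there. A match is a description of sequence and not a bound site, and no window was given for Hsf1, Hsp90aa1, Hspa8 or Hsp90ab1.

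Of the constitutive genes Hspa8, the HSC70 chaperone of unstressed cells (chromosome 9, 40800984 to 40810087, plus strand), had 3474, 3360 and 3472 CPM in sgCdk10 and 2631, 2588 and 2449 CPM in sgControl. It ranked 15th by mean CPM among the 13442 tested genes and did not overlap between groups, with a log2 fold change of 0.43 (SE 0.03; adjusted p = 9.0e-12 in edgeR). Hsp90ab1, the constitutive HSP90 gene (chromosome 17, 45567775 to 45573271, minus strand), had 5351, 5207 and 5309 CPM in sgCdk10 and 5831, 5857 and 5597 CPM in sgControl. It was the 6th most abundant tested gene by mean CPM. All sgCdk10 libraries lay below all sgControl libraries, and the log2 fold change was -0.12 (SE 0.03; adjusted p = 0.000407 in edgeR). Hspa4, an HSP110 protein that acts as nucleotide exchange factor (chromosome 11, 53259814 to 53300457, minus strand), had 346, 348 and 347 CPM in sgCdk10 and 324, 329 and 333 CPM in sgControl. Its log2 fold change of 0.08 (SE 0.03; adjusted p = 0.0214 in edgeR) was no longer called without sgCdk10 replicate 1 (adjusted p = 0.0655), 2 (0.0711) or 3 (0.0621), without sgControl replicate 1 (0.0934), or without a filter (0.0568). Its value stayed at 0.07 to 0.08 when a library was left out (range of adjusted p over 16 alternatives 0.00207 to 0.0934).

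**Figure D2:**
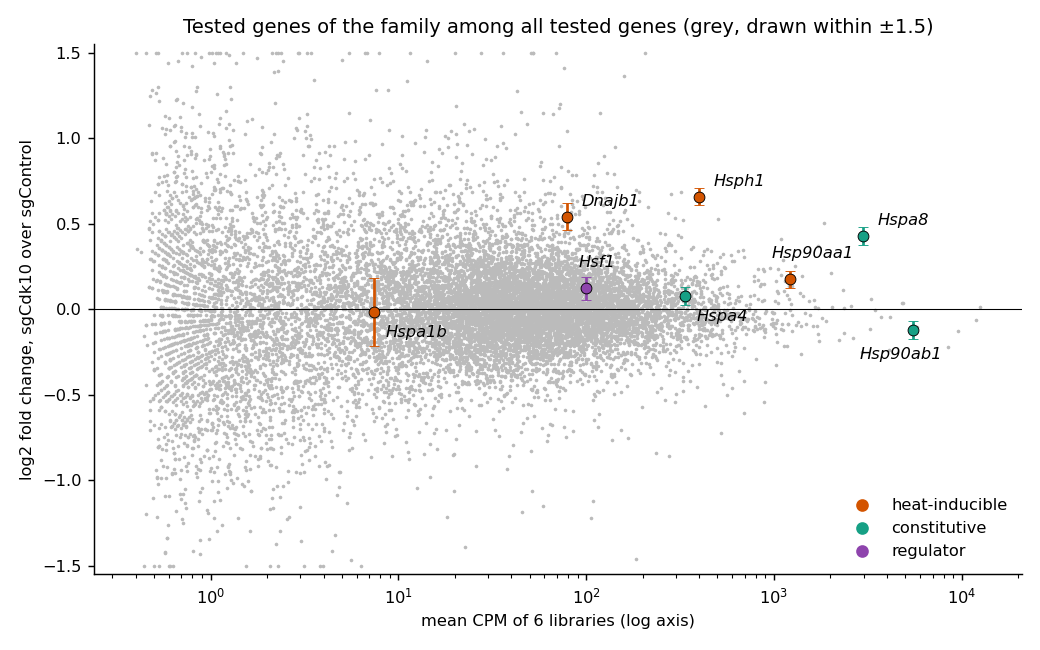
Log2 fold change of sgCdk10 over sgControl against mean CPM on a log axis for all 13442 tested genes (grey) and the 8 tested members (coloured by class, with approximate 95% intervals). Hsph1, Dnajb1 and Hspa8 lie at 0.43 to 0.66, while Hspa1b lies at -0.02 and Hsp90ab1 at -0.12.

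Processed pseudogenes, copies of a messenger RNA put back into the genome, had many counts next to Hspa8, and reads of the gene and its copies cannot be told apart over most of their length. Among 12 pseudogenes at least 90% identical to its transcript over 300 bases or more, Gm15459 (chromosome 5, 5781615 to 5783555, minus strand) had 22961, 22107 and 23552 counts in sgCdk10 and 16566, 16621 and 17274 counts in sgControl. It has 5 differences from the 1938 coding bases of Hspa8. A stretch of 61 bases around one of them is shown because it lets a reader see how little tells the transcripts apart. The differing base, in capitals, is G114A from Hspa8 to Gm15459, counted from 1 at the start codon.
Hspa8: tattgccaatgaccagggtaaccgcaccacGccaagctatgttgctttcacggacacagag
Gm15459: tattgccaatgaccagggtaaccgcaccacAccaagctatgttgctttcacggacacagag
The row of the pseudogene moved like that of Hspa8, with a log2 fold change of 0.41 (SE 0.03; adjusted p = 3.3e-12 in edgeR) and no overlap between groups. The 12 copies held 26.2 to 28.4% of the joint count in a library. With their counts added to Hspa8 the log2 fold change was 0.42 (adjusted p = 2.0e-12 in edgeR). For Hsp90aa1 4 copies held 0.912 to 1.56% of the joint count, and for Hsp90ab1 2 copies held at most 0.0128%. Dnajb1, Hsph1, Hspa4 and Hsf1 had no such copy.

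The ratio of an inducible gene to its constitutive relative within a library needs no scaling between libraries, and its change does not depend on transcript length. For the HSP90 pair the count of Hsp90aa1 over that of Hsp90ab1 was 0.241, 0.245 and 0.246 in sgCdk10 and 0.198, 0.194 and 0.205 in sgControl. The ratio was higher in 3 of 3 sgCdk10 libraries, by 0.30 on the log2 scale. For the HSP70 genes the sum of Hspa1a and Hspa1b over Hspa8 was 0.00205, 0.00222 and 0.00226 in sgCdk10 and 0.00288, 0.00304 and 0.00309 in sgControl. Here the inducible share was lower in 3 of 3 sgCdk10 libraries, by -0.46 on the log2 scale. The sum itself hardly moved (log2 fold change -0.03; adjusted p = 0.815 in edgeR), while Hspa8, the denominator, rose by 0.43. A two-sided exact permutation test gave p = 0.10 for each ratio, also after adjustment over the 2 ratios, which is the smallest value that 3 against 3 libraries allow. The groups did not overlap in either ratio. The 2 ratios moved in opposite directions, but for the HSP70 genes this reflects the rise of Hspa8 and not a fall of the inducible pair.

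**Figure D3:**
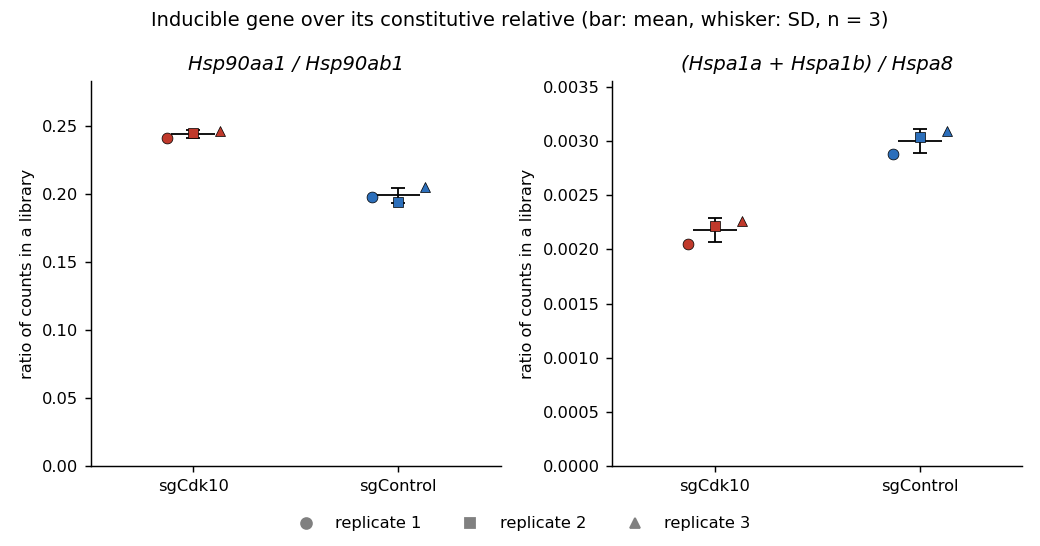
Ratio of counts of the inducible gene over its constitutive relative in each library, with sgCdk10 on the left and sgControl on the right of each panel, bars at the mean and whiskers for the SD of 3 libraries. The Hsp90aa1 to Hsp90ab1 ratio is higher in sgCdk10 (0.241 to 0.246, against 0.194 to 0.205). The HSP70 ratio is lower, with a higher count of its denominator, Hspa8.

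Levels per length, as CPM per kb of merged exons, placed Hsp90ab1 first, at 1764 ± 24.7 in sgCdk10 and 1921 ± 47.7 in sgControl (SD, n = 3 each). Hspa8 followed with 799 ± 15.2 in sgCdk10 and 594 ± 22.1 in sgControl, and Hsp90aa1 with 329 ± 3.98 in sgCdk10 and 292 ± 2.60 in sgControl. The next places were close. Hsph1 had 67.2 ± 0.613 and Hspa4 62.7 ± 0.139 in sgCdk10, while Hsph1 had 42.6 ± 0.425 and Hspa4 59.5 ± 0.792 in sgControl, so their order differed between the groups beyond the spread of libraries. Per kb of the longest coding transcript Hsph1 was above Hspa4 in both groups. Below them Dnajb1 had 29.4 ± 1.33 in sgCdk10 and 20.2 ± 0.214 in sgControl, and Hsf1 14.7 ± 0.178 in sgCdk10 and 13.5 ± 0.359 in sgControl, an order that the length of the longest coding transcript turned round. Hspa1b had 2.64 ± 0.112 in sgCdk10 and 2.67 ± 0.0326 in sgControl, and Hspb1 and Hspa1a came last. Together the 10 genes held 1.11 ± 0.0128% of all counts in sgCdk10 and 1.02 ± 0.0218% in sgControl (SD, n = 3 each).

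**Figure D4:**
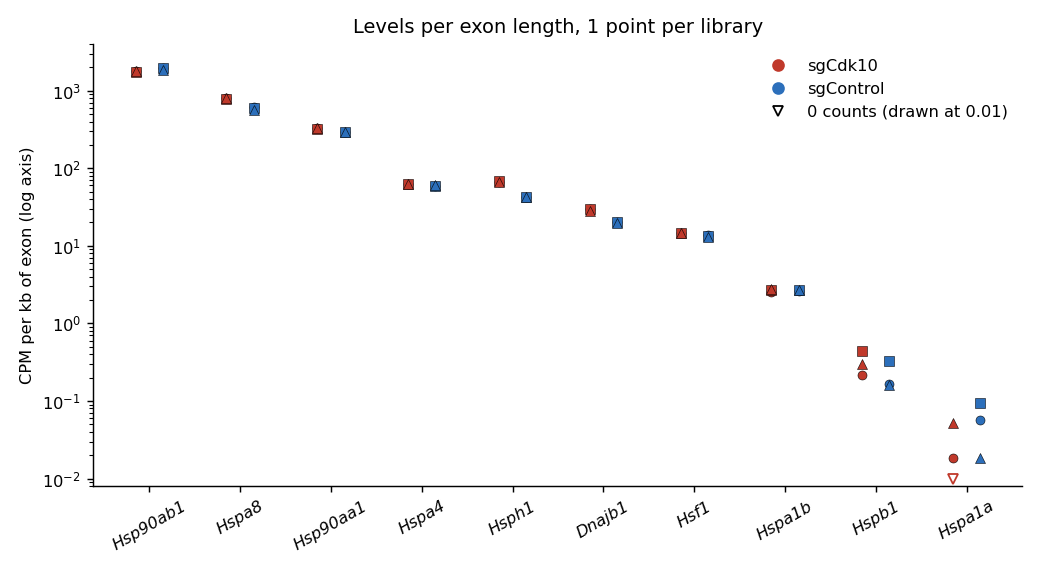
CPM per kb of merged exon for each of the 10 genes on a log axis, 1 point per library, with sgCdk10 (red) left of sgControl (blue) for each gene; an open triangle marks a library with 0 counts, drawn at 0.01. The levels span from about the floor for Hspa1a to 1921 on average for Hsp90ab1 in sgControl.

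Other genes of chaperone biology were described in 8 lists of 89 genes, of which 82 were tested. In all, 18 rose (22.0%) and 17 fell (20.7%), shares close to those of all tested genes (22.1% and 20.4%), and the median log2 fold change was 0.00. With a correction for GC content and length 16 rose and 23 fell. Uncorrected, 8 of the 17 falls were in the mitochondrial list, and without that list 18 of 70 tested genes rose (25.7%) and 9 fell (12.9%). A rise of at least 1.25-fold was called for 4 of the 82 tested genes, against 9.10% of all tested genes. A fall of that size was called for 3 of the 82, against 6.55%. Counts within the lists were small, and each is a description without a test of the list.

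Some co-chaperones of HSP70 and HSP90 rose, while most tested genes of their lists were not called. Over all tested genes 22.1% rose and 20.4% fell, and 9.10% rose by at least 1.25-fold. A rise of that size was called for 3 cytosolic J proteins, 0 genes of the BAG list and 0 HSP90 co-chaperones. Of 11 tested cytosolic J proteins 4 rose and 1 fell, with a median of 0.01. Dnaja1, a farnesylated partner of HSC70, had 243 ± 6.39 CPM in sgCdk10 and 186 ± 3.60 CPM in sgControl (SD, n = 3; log2 fold change 0.39, SE 0.03; adjusted p = 2.5e-10 in edgeR). Dnajb2 rose by 0.38 (adjusted p = 1.2e-06 in edgeR) and Dnajc21, a J protein of ribosome assembly, by 0.35 (adjusted p = 1.1e-07 in edgeR). Of 9 genes of BAG proteins, exchange factors and other HSP70 partners 3 rose and 0 fell, with a median of 0.02. They were Bag3, an HSF1 target that links HSP70 to autophagy, at 0.21 (adjusted p = 0.00221 in edgeR), Bag2 at 0.23 (adjusted p = 0.00309 in edgeR), and St13, the HSP70-interacting protein HIP, at 0.17 (adjusted p = 2.3e-05 in edgeR). Of 16 HSP90 co-chaperones 6 rose and 1 fell, with a median of 0.08. Stip1, the HOP protein that joins HSP70 to HSP90, had 557 ± 5.65 CPM in sgCdk10 and 483 ± 13.3 CPM in sgControl (SD, n = 3; log2 fold change 0.21, SE 0.03; adjusted p = 1.1e-06 in edgeR). Chordc1 rose by 0.27 (adjusted p = 6.8e-06 in edgeR) and Ahsa2 by 0.31 (adjusted p = 0.000396 in edgeR), although 47.2% of the exon length of Ahsa2 overlaps exons of Usp34 on the other strand.

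Small heat shock proteins other than Hspb1 moved both ways. Of 5 tested, 2 rose and 1 fell, where 22.1% of all tested genes rose and 20.4% fell. Cryab, which encodes the alpha-B crystallin chaperone, rose to 25.8 ± 0.497 CPM in sgCdk10, against 20.6 ± 0.936 CPM in sgControl (SD, n = 3; adjusted p = 9.7e-05 in edgeR), with 17.0% of its exon length shared with Hspb2 on the other strand. Hspb8, the partner of Bag3, rose to 102 ± 1.42 CPM in sgCdk10, against 83.5 ± 2.14 CPM in sgControl (SD, n = 3; adjusted p = 3.6e-07 in edgeR), and Hspb6 fell by 0.32 on the log2 scale (adjusted p = 3.8e-05 in edgeR). Of 7 other HSP70 and HSP110 genes 1 rose and 3 fell (22.1% and 20.4% over all tested genes), with a median of -0.13. Hspa13 rose by 0.18 (adjusted p = 0.00215 in edgeR), Hspa14 fell by 0.13 (adjusted p = 0.00220 in edgeR) and Hspa12a fell to 1.63 ± 0.383 CPM in sgCdk10, against 2.52 ± 0.342 CPM in sgControl (SD, n = 3; log2 fold change -0.63; adjusted p = 0.0174 in edgeR). The call of Hspa12a was lost without sgCdk10 replicate 1 (adjusted p = 0.0619) or 3 (0.105), without sgControl replicate 3 (0.0521), and in DESeq2 (0.101; range over 16 alternatives 0.00801 to 0.105).

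Genes of the HSF family and of HSF1 regulators gave 2 rises and 1 fall among 8 tested, with a median of 0.00. Shares over all tested genes were 22.1% higher and 20.4% lower. Sirt1, the deacetylase known to prolong DNA binding of HSF1, fell to 9.20 ± 0.996 CPM in sgCdk10, against 13.4 ± 0.910 CPM in sgControl (SD, n = 3; log2 fold change -0.55, SE 0.09; adjusted p = 3.4e-05 in edgeR). Ep300, an acetyltransferase that acts on HSF1, rose by 0.12 (adjusted p = 0.00192 in edgeR), a call lost with the correction for GC content and length (adjusted p = 0.169; range over 16 alternatives 9.8e-05 to 0.169). Its relative Crebbp rose by 0.12 (adjusted p = 0.0352 in edgeR), a call lost without sgCdk10 replicate 2 (adjusted p = 0.152) or 3 (0.0882), without sgControl replicate 2 (0.0568) or 3 (0.116), with the GC and length correction (0.418) and in DESeq2 (0.142; range over 16 alternatives 0.0243 to 0.418).

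Genes of the mitochondrial list fell in 8 of 12 tested cases and rose in 0, with a median of -0.11. That list holds chaperones and also proteases such as Clpp. The shares over all tested genes were 22.1% called higher and 20.4% called lower. A fall of at least 1.25-fold was called for 0 of the 12, against 6.55% of all tested genes, so these falls were small. Hspa9, the mitochondrial HSP70, had 1259 ± 1.19 CPM in sgCdk10 and 1513 ± 7.01 CPM in sgControl (SD, n = 3; log2 fold change -0.27, SE 0.02; adjusted p = 3.3e-09 in edgeR). Clpp, a protease of the matrix, fell by 0.28 (adjusted p = 3.1e-05 in edgeR) and Dnaja3, a mitochondrial J protein, by 0.21 (adjusted p = 4.7e-05 in edgeR). The cytosolic chaperonin TRiC and prefoldin gave 0 rises and 2 falls among 14 tested and log2 fold changes from -0.11 to 0.07. Cct2 fell by 0.11 (adjusted p = 0.000828 in edgeR) and Cct8 by 0.10 (adjusted p = 0.0115 in edgeR). The call of Cct8 was lost without sgCdk10 replicate 1 (adjusted p = 0.0972) or 2 (0.0765; range over 16 alternatives 0.00486 to 0.0972). Cct6a had a log2 fold change of -0.06 (adjusted p = 0.0919 in edgeR).

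**Figure D5:**
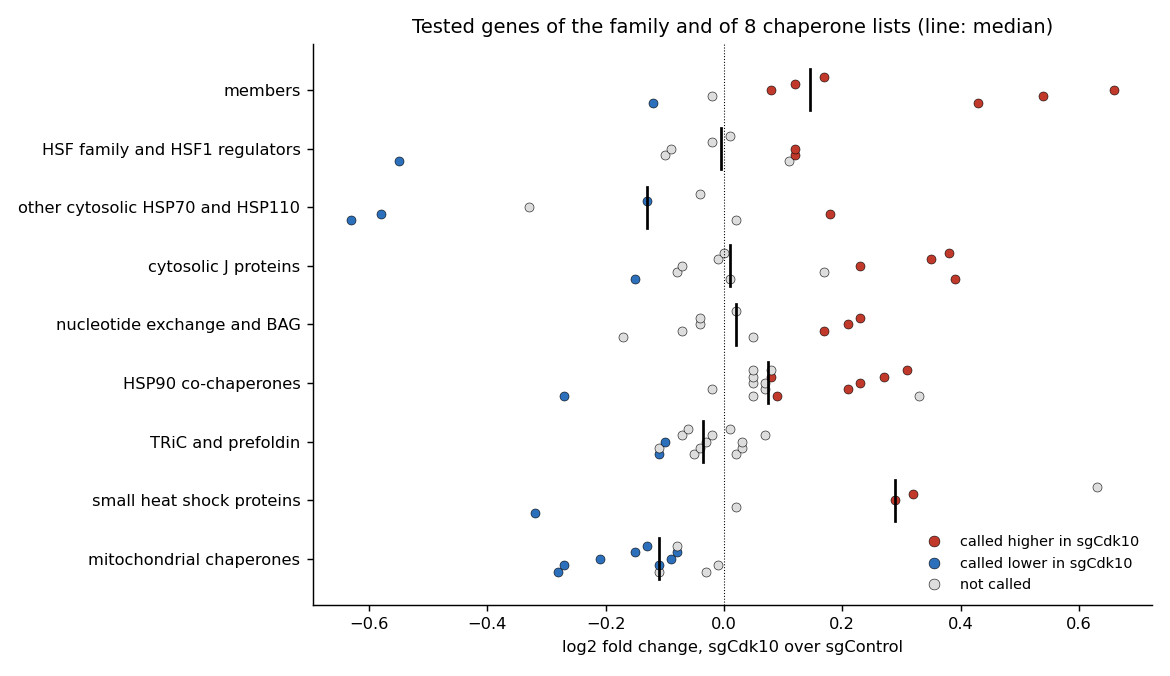
Log2 fold change of sgCdk10 over sgControl for each tested member and each tested gene of the 8 chaperone lists, 1 point per gene, red where called higher in sgCdk10, blue where called lower and grey where not called, with a line at the median of each row. The mitochondrial row lies from -0.28 to -0.01, and the members reach 0.66.

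Outside these lists, the genes whose centred profile over the 6 libraries lay nearest to the mean profile of the 4 tested inducible genes were Adamts10, Cacfd1 and Ccnd1, at Euclidean distances of 0.0204, 0.0236 and 0.0274 on the log2 scale. Each had a log2 fold change of 0.34, which largely follows from choosing the genes nearest to that mean profile. That mean profile averages Hsph1 and Dnajb1 with Hsp90aa1 and Hspa1b, whose log2 fold changes ran from -0.02 to 0.66.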

How the data were processed

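RNA was sequenced from CT26 cells in 3 sgCdk10 and 3 sgControl libraries, grouped and numbered by title. What the authors deposited is 1 table of raw counts per Ensembl gene. Tools listed by the submitters' processing notes are HISAT2 (2.2.1), featureCounts (2.0.3) and DESeq2 (1.40.2), with the build mm10. The sources used here do not give the annotation release, the strand setting or the treatment of multimapping reads, so reads of overlapping genes or near-identical copies may be misassigned or missing.

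Symbols and coordinates came from GENCODE M21 (GRCm38), which matched 52081 of 57010 identifiers. Genes were kept by filterByExpr (minimum count 10, minimum total 15), scaled by TMM and tested with edgeR 4.0.16 (robust quasi-likelihood, group only) over 13442 genes, with Benjamini-Hochberg adjustment and a threshold of 0.05. Log2 fold changes are sgCdk10 over sgControl, their SE was derived from the F statistic, and the approximate 95% interval is 1.96 SE on each side. CPM use TMM-adjusted totals. The floor of detection covers counting error only, while the intervals, through the SE, also cover the spread among these libraries. Copies were found with BLAST 2.17.0 (at least 90% identity over 300 bases).

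Libraries of one group were further apart than counting alone gives (chi-square per degree of freedom 1.53 to 4.14). Alternatives were other size factors, DESeq2 1.42.0, limma-voom (limma 3.58.1), no filter, a filter of 1 CPM, non-robust dispersions, the replicate block, GC and length offsets (loess, span 0.5), summing Hspa1a and Hspa1b, leaving out each library and, added after seeing the data, adding pseudogene copies. Named genes were the 10 members, Cdk10, the 3 smallest p-values of each list and the 3 nearest profiles (log2 of CPM plus 0.1). Gm15459 and the marker genes shown were named after their values were seen. The members and lists were chosen with earlier results of these data known.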

Additional observations from a re-analysis of the deposited data

How the results depend on the processing

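Under all 16 alternatives 5 or 6 members were higher and 1 was lower, and Hsph1, Dnajb1, Hspa8, Hsp90aa1 and Hsp90ab1 kept their direction and their call. Leaving out 1 library gave 5 to 6 members higher, 1 lower, 4791 to 6056 changed genes over all tested, log2 fold changes for Cdk10 of -0.90 to -0.75, and log2 differences of 0.28 to 0.32 for the Hsp90aa1 to Hsp90ab1 ratio and -0.49 to -0.42 for the HSP70 ratio. The other alternatives gave 4179 (DESeq2) to 5952 (GC and length correction) changed genes, against 5717. The GC and length correction gave 2684 higher and 3268 lower, against 2970 and 2747, and 16 and 23 genes of the chaperone lists, against 18 and 17. The direction of Hspa1b turned to 0.02 without sgCdk10 replicate 1 (range on leaving out a library -0.04 to 0.02), and it was called under no alternative. Over the 36 single genes and 575 fits 555 kept direction and side of the threshold, 19 lost the call and 1 turned; the genes that lost it were Hspa4, Hsf1, Ep300, Crebbp, Hspa12a and Cct8, and the cause was not tested. The replicate block gave 5481 changed genes, 6 members higher and 1 lower, and changed no call of a named gene. Deviations of same-numbered libraries correlated at 0.03, -0.06 and -0.10, so the numbers are not taken to pair the libraries. A ratio with Hspa1b left out of the sum could not be computed, since Hspa1a had 0 counts in a library. Hspa1a and Hspb1 had at most 8 counts in a library, which limits the precision of their values, and the part of depth and of near-identical copies in these low counts was not tested.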
